A study of Mus musculus with 24 samples.

Results

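The genes described here are those that carry the names of mitochondrial ribosomal proteins in a mouse liver tumour RNA-seq series. They were taken from the deposited FPKM table by name, as entries called Mrpl or Mrps followed by a number and at most 1 further letter from A to C, with an FPKM (fragments scaled by gene length and by the library's total) of 1 or more in at least 10 of the 24 libraries. Of 54403 entries, 78 had such a name and 77 met the expression limit. The entry left out, Mrpl53, was at 0 in 23 libraries and at 0.0398 FPKM in the other. The members nearest the limit from above were far from it: Mrpl33, Mrps10 and Mrpl32 had the lowest mean levels over the 20 vehicle, RMC-6272 and sorafenib libraries, 4.61, 6.47 and 6.54 FPKM. The highest were those of Mrpl34 (234.7 FPKM), Mrpl12 (118 FPKM) and Mrpl52 (116 FPKM). FPKM are per length, so these levels can be set against each other.

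Mitochondria keep a ribosome of their own, which translates only the few mRNAs of the mitochondrial genome, and these encode subunits of the respiratory chain. Its RNAs come from mitochondrial DNA, but all of its proteins are encoded in the nucleus, made by cytosolic ribosomes and imported. Some of these proteins have a bacterial counterpart and others were added in the mitochondrial lineage. In this set 50 genes encode proteins of the large subunit, 30 with a bacterial homologue and 20 specific to mitochondria, and 26 encode proteins of the small subunit, 16 and 10. Names do not always give the place: the products of Mrps18a and Mrps30 sit in the large subunit and are counted there, and the product of Mrps36 belongs to the 2-oxoglutarate dehydrogenase complex of the citric acid cycle. In liver the organelle carries much of the cell's biosynthesis as well as respiration, and MYC is known for driving genes of both cytosolic and mitochondrial ribosomes.

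All tumours came from Lap-tTA/Tet-O-MYC mice of strain FVB/N, in which the LAP promoter drives the tetracycline transactivator in hepatocytes and a human MYC transgene stays on unless doxycycline is given. Doxycycline was withdrawn at 4 weeks of age in every group, controls included, and pieces of hepatocellular carcinoma were frozen for RNA. Vehicle and RMC-6272, an inhibitor of mTOR complex 1 (a kinase complex that promotes cell growth through translation), were injected into the peritoneum once a week (RMC-6272 at 10 mg/kg), and sorafenib, which inhibits several kinases and is a drug for liver cancer, was given by mouth at 30 mg/kg a day. Times run from a dose 7 days after the first, which is the second of the weekly doses. For daily sorafenib, whether further doses fell between that dose and sampling is not stated here. Groups were vehicle 24 h (3 libraries), RMC-6272 12 h (1 library), 24 h, 48 h and 72 h (3 libraries each), and sorafenib 4 h (3 libraries), 24 h and 48 h (2 libraries each). Doxycycline for 24 h (100 µg/ml in drinking water, which shuts the transgene off) and RMC-4627, another mTOR complex 1 inhibitor, for 24 h at 10 mg/kg (2 libraries each) are shown apart. The sex and the age of the mice at sampling, and whether replicates came from separate mice, are not given in the sources used here, so p measures the spread between samples, which may be technical. Vehicle was sampled at 24 h only. Every comparison with vehicle shares its 3 libraries, and the description codes of the vehicle libraries are none of those of the RMC-6272 or sorafenib libraries, so whatever the codes stand for and the treatment cannot be told apart.

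Low values in the 20 vehicle, RMC-6272 and sorafenib libraries fell on whole reads in 98.12 to 98.62% of cases, counted up to 20 reads with a tolerance of 0.02 reads, and gave depths of 17.62 to 41.66 M reads (median 34.94). In the 4 doxycycline and RMC-4627 libraries only 4.22 to 4.48% did, so their depth is unknown. The order of the members' levels differed as well. Spearman's rho of the 77 levels in a library with the mean of vehicle (the other vehicle libraries, for a vehicle library) was 0.91 to 0.99 in each of the 20 libraries, but 0.32 and 0.31 in the doxycycline and 0.21 and 0.26 in the RMC-4627 libraries. Within the 20 libraries, 3 stood apart in these genes. RMC-6272 72 h replicate 2 had 40 members above all vehicle libraries, against 6 and 12 in the other two of its group (33.5%, 36.9% and 36.8% of all tested genes). In FPKM of these genes, RMC-6272 24 h replicate 2 was nearer to vehicle than the others of its group. Vehicle replicate 1 was the lowest of the 3 vehicle libraries. The sum over all genes differed as well. It was 500708 FPKM in RMC-6272 24 h replicate 2, against 412842 and 360325 in replicates 1 and 3. In vehicle it was 324724 FPKM in replicate 1, against 414032 and 403510 in replicates 2 and 3. The part of these sums in the members' levels was not tested. RMC-6272 72 h replicate 3 had the lowest depth (17.62 M reads), 6.24% of all FPKM in globin genes (at most 0.55% in the other 19) and a summed neutrophil marker level of 2697 FPKM (at most 71.6 in the other 19). Counts of called genes are given with and without these libraries.

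Defining hepatocyte genes were expressed in every library. Their summed level over 10 genes was 3528 to 6581 FPKM in vehicle and 13520 to 31690 FPKM at 24 h of RMC-6272. At that time 8 of 10 hepatocyte markers rose (4 without RMC-6272 replicate 2, 5 without vehicle replicate 2), as did 3 of 11 tested macrophage markers, whose summed level went from 549 to 769 FPKM in vehicle to 1382 to 1593 FPKM, and 2 of 8 stellate cell and fibroblast markers. Over all tested genes 14.8% were higher, and 11.6% and 10.6% were without RMC-6272 replicate 2 and without vehicle replicate 2. Neither the 4 T cell, 1 B cell, 5 neutrophil, 5 erythroid nor 7 endothelial markers tested held a gene past the threshold, and 1 of 4 cholangiocyte markers fell. All 5 neutrophil markers, however, had higher values without overlap between groups (median 1.54 on the log2 scale). Groups did not overlap, in either direction, in 50.1% of all tested genes. The summed level of neutrophil markers was 1.59 to 3.20 FPKM in vehicle and 11.1 to 40.8 FPKM at 24 h of RMC-6272. In these bulk samples fewer cells of a type and less RNA per cell cannot be told apart. The part that cell content plays in the changes of the ribosomal protein genes was not tested.

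RMC-6272 at 24 h was set against vehicle at 24 h to ask how mitochondrial ribosomal protein genes stood in tumours under mTOR complex 1 inhibition. Of the 77 genes, 44 fell and 1 rose in limma (Benjamini-Hochberg adjusted p under 0.05 over 13594 tested genes), where 20.3% of all tested genes were lower and 14.8% higher. The median difference of the 77 genes was -0.63 on the log2(FPKM + 1) scale, against -0.01 over all tested genes, and single genes ranged from -1.39 to 0.39. A negative value was seen in 72 genes. In 43 genes the 3 libraries of one group all lay on one side of the 3 of the other, which held for 50.1% of all tested genes. Of the 44 that fell, 40 did not overlap between groups, and 9 fell by at least 1 on the log2 scale. All 77 genes had passed the filter on low values, so none is missing from these counts. With all 24 libraries in 1 fit, 26 fell and 0 rose (12% and 9.69% of all tested genes). Without vehicle replicate 1, 57 fell and 0 rose, and without RMC-6272 24 h replicate 2, 52 fell and 0 rose (19% and 17.5% of all genes were lower in these fits). The lowest count of falls among fits without 1 library was 31, without vehicle replicate 3, where 15.2% of all genes were lower.

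**Figure D1:**
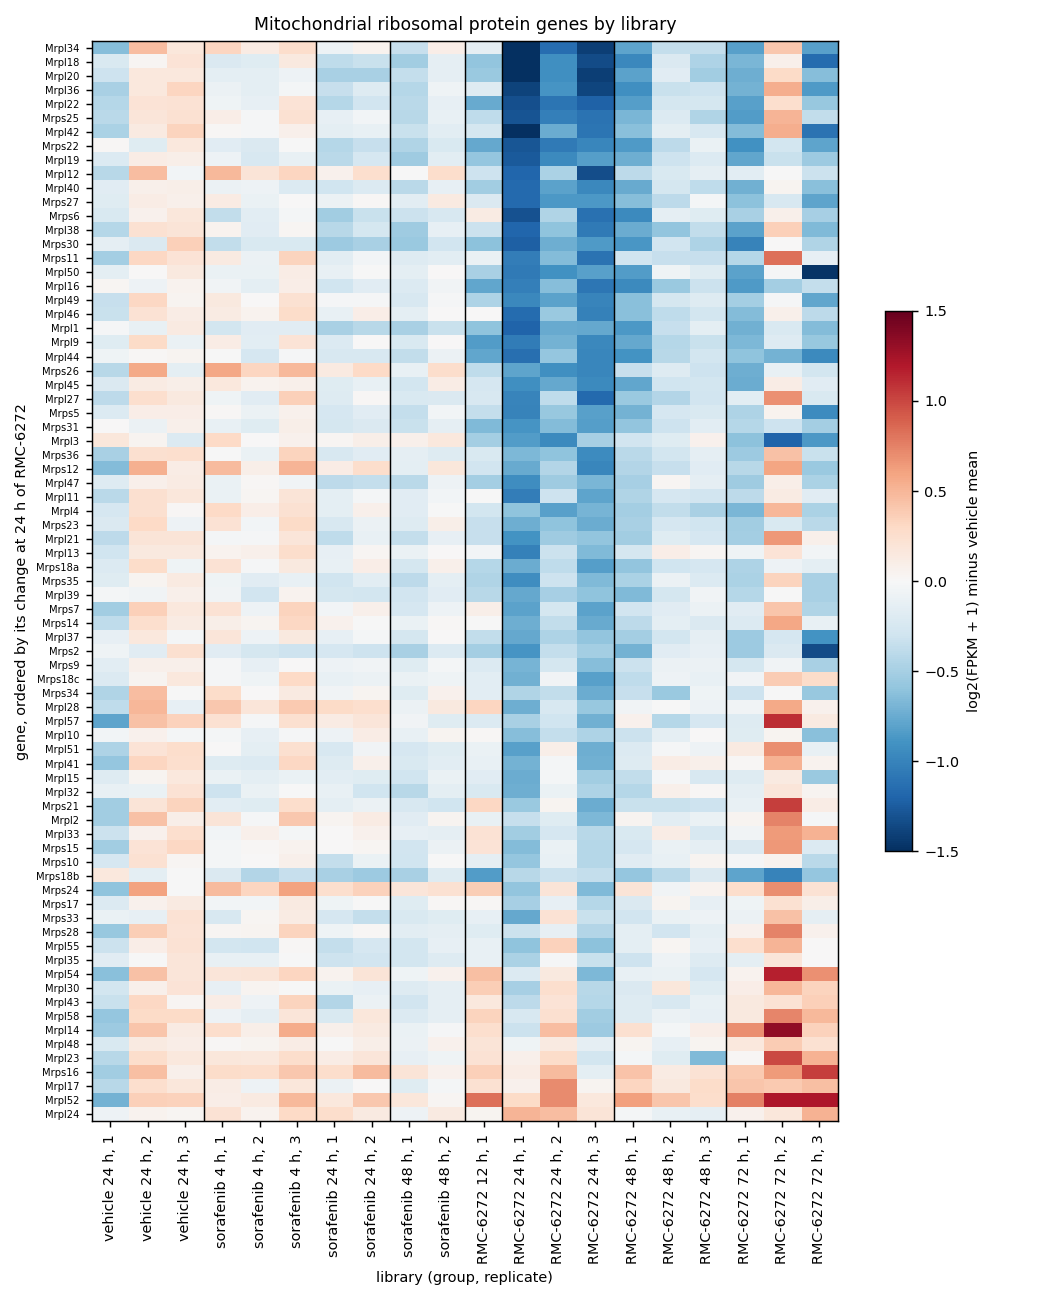
Each row is 1 of the 77 genes, ordered by its difference at 24 h of RMC-6272, and each column 1 of the 20 libraries. Colour gives log2(FPKM + 1) minus the mean of the vehicle libraries, held at 1.5 in either direction, and the block of the 3 RMC-6272 24 h libraries is the darkest blue, with 63, 42 and 67 genes below all vehicle libraries (38%, 38.7% and 37.9% of all tested genes).

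The largest fall was that of Mrpl34, a small protein of the large subunit and the most abundant transcript of the set. Its FPKM was 175, 378 and 308 in vehicle and 87.6, 123 and 102 at 24 h of RMC-6272 (287 ± 103 and 104 ± 17.9, mean ± SD, n = 3 each; log2 difference -1.39 ± 0.32 SE, limma adjusted p = 0.00454). Every RMC-6272 library lay below every vehicle library. Mrpl18, whose bacterial counterpart binds the small RNA of the large subunit, had 71.4, 85.7 and 97.3 FPKM in vehicle and 25.5, 44.0 and 32.5 FPKM at 24 h, a log2 difference of -1.32 (adjusted p = 0.00349). Mrpl20, a large subunit protein, had 64.2, 89.2 and 89.3 FPKM in vehicle and 26.6, 41.7 and 29.5 FPKM at 24 h (-1.30, adjusted p = 0.00211). In each of these genes replicate 2 was the highest of the RMC-6272 libraries and still below the lowest vehicle library.

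Mrpl36, the mitochondrial form of one of the smallest bacterial ribosomal proteins, went from 62.4, 98.2 and 110.0 FPKM to 32.8, 47.1 and 33.2 FPKM (-1.22, adjusted p = 0.00900). Mrpl22, whose bacterial counterpart lines the exit tunnel of the nascent chain, went from 50.2, 78.5 and 78.9 FPKM to 26.5, 31.1 and 28.7 FPKM (-1.21, adjusted p = 0.00297). Among proteins without a bacterial counterpart, Mrpl42 of the large subunit fell by 1.12 (adjusted p = 0.0176), but adjusted p was 0.0560 to 0.0750 when vehicle replicate 2 or 3 or RMC-6272 24 h replicate 1 was left out. Small subunit genes were led by Mrps25 (8.80, 13.7 and 14.2 FPKM in vehicle, 4.31, 5.39 and 5.04 FPKM at 24 h; -1.14, adjusted p = 0.00512) and Mrps22 (16.0, 13.7 and 17.7 FPKM against 5.85, 6.98 and 7.51 FPKM; -1.11 ± 0.19, adjusted p = 0.00124). Both encode mitochondrion-specific proteins. All 6 fits that left out 1 library kept the falls of Mrpl34, Mrpl18, Mrpl20, Mrpl36, Mrpl22, Mrps25 and Mrps22 past the threshold.

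Falls were found in both subunits and in both classes of protein, where 20.3% of all tested genes fell. In the large subunit 30 of 50 genes fell and 1 rose (median -0.67), and in the small subunit 13 of 26 fell (median -0.60). Of 46 genes with a bacterial homologue 24 fell and 1 rose (median -0.60), and of 30 mitochondrion-specific genes 19 fell (median -0.67). The difference between these classes was not tested. Mrps18a fell by 0.65 and Mrps30 by 0.94, so both large subunit genes with a small subunit name were among those that fell (adjusted p = 0.00966 and 0.00730). Mrps36, of the 2-oxoglutarate dehydrogenase complex, was also lower, at 12.7, 13.4 and 10.3 FPKM against 14.6, 24.7 and 25 FPKM (-0.74, adjusted p = 0.0265). Across the 77 genes the difference at 24 h had a Spearman's rho of 0.05 with exon length and -0.10 with mean level, as a description, since the genes share the same libraries.

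The gene that rose was Mrpl24, whose bacterial counterpart sits near the exit of the peptide tunnel. It had 25, 27.3 and 27.0 FPKM in vehicle and 38.2, 36.8 and 30.4 FPKM at 24 h (0.39 ± 0.14, adjusted p = 0.0370). The groups did not overlap. Its call depended on single libraries, since adjusted p was 0.0635 to 0.121 without any 1 of the 3 vehicle libraries or RMC-6272 replicate 1 or 2, and among these fits it was past the threshold only without RMC-6272 replicate 3. It was 0.464 with all 24 libraries fitted and 0.0858 with only the 2 groups. Mrpl52 and Mrpl17, both of the large subunit, also had higher means, but did not pass the test: 51.2, 109 and 108 FPKM against 103, 139 and 94.7 FPKM in Mrpl52 (0.39, adjusted p = 0.255), and 14.4, 23.4 and 22.1 FPKM against 20.5, 32.5 and 20.1 FPKM in Mrpl17 (0.27, adjusted p = 0.276). In both the groups overlapped. Mrps16, Mrpl23 and Mrpl48 were near 0 (0.14, 0.02 and -0.02, adjusted p = 0.651, 0.948 and 0.907).

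**Figure D2:**
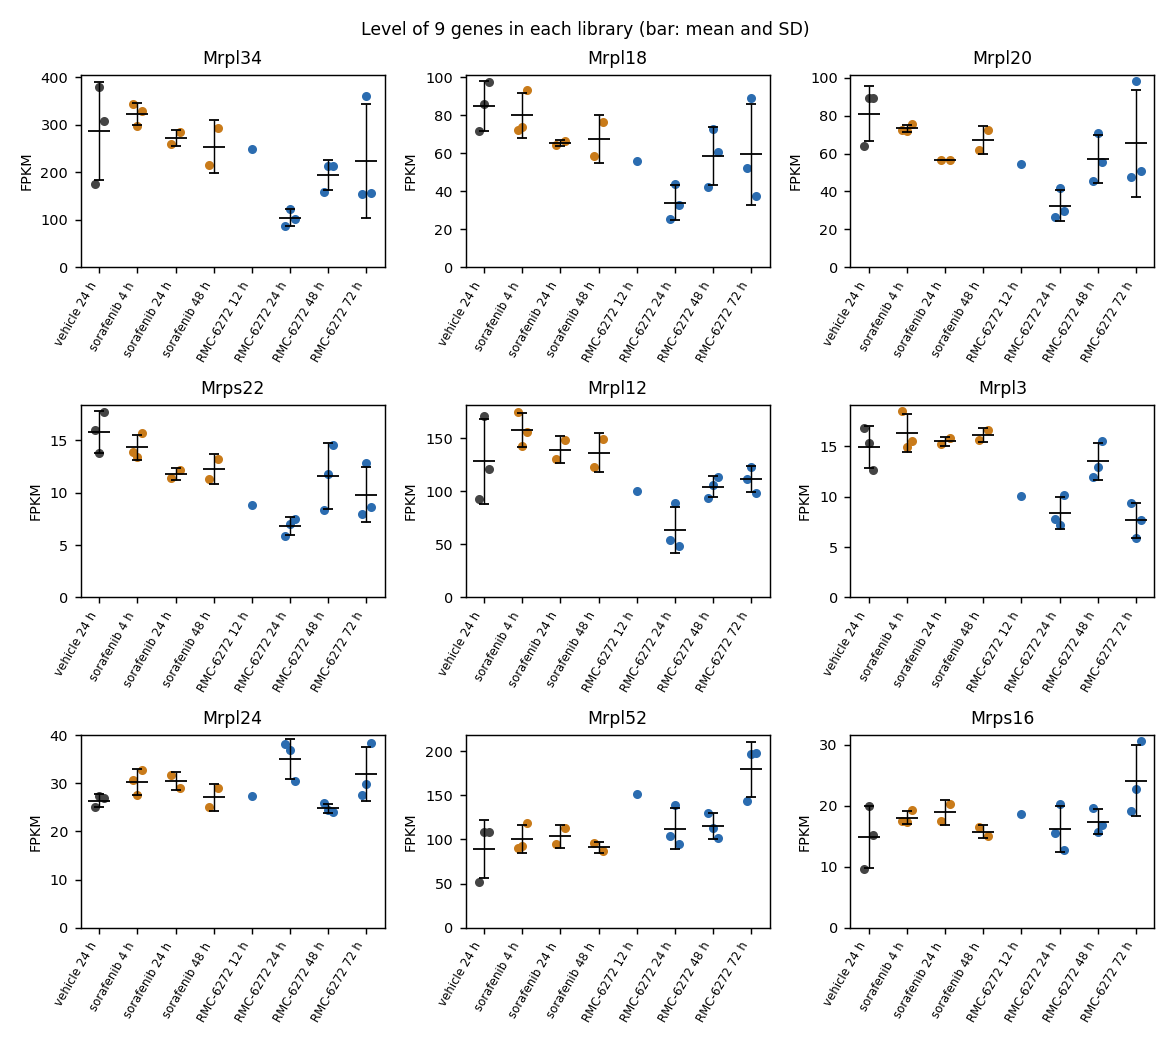
FPKM (vertical axes from 0) of 9 genes in each of the 20 libraries, with 1 point per library and bars for mean and SD of each group. In Mrpl34 the RMC-6272 24 h libraries lie between 87.6 and 123 FPKM, below the vehicle libraries at 175 to 378, while in Mrpl52 the RMC-6272 72 h libraries lie at 143 to 198 FPKM, above them.

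Promoter windows are shown for 4 of the 5 genes with the largest falls, because each holds a counted motif in the 150 bases before its start. A motif is a short stretch of sequence that a transcription factor binds, and 4 were searched on both strands: CACGTG (the E-box of MYC and related factors), CCGGAAG (ETS factors, with GABP among them), GCATGCGC (NRF1) and AAGATGGC (YY1). GABP, NRF1 and YY1 are known for driving nuclear genes of mitochondrial proteins. Windows are RefSeq's, of build GRCm38.p6, 250 bases before to 50 after the first listed start, and were present for 68 of the 77 genes. The 150 bases before the start are printed 5′ to 3′ on the gene's strand, all 4 on the plus strand of the genome, with motif matches in capitals. These are Mrpl34 at chr8:71464776-71464925 (CCGGAAG), Mrpl20 at chr4:155802728-155802877 (CACGTG), Mrpl36 at chr13:73330859-73331008 (CACGTG, then AAGATGGC on the other strand) and Mrpl22 at chr11:58171514-58171663 (CCGGAAG, then GCATGCGC on the other strand).
Mrpl34: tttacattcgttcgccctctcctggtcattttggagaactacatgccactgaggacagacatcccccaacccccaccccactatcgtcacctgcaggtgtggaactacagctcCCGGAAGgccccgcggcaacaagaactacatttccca
Mrpl20: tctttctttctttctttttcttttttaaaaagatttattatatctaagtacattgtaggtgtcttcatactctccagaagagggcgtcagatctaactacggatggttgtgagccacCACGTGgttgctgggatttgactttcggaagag
Mrpl36: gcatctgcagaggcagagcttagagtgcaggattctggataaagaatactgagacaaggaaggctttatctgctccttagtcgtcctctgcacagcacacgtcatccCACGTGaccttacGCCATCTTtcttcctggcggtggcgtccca
Mrpl22: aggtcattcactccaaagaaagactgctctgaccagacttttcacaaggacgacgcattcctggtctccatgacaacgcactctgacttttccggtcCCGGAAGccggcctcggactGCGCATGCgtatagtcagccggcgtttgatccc

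Over the 68 windows of 300 bases, CCGGAAG was found in 24 genes (35.3%, against 9.1% of all 27025 promoters and 18.3% of the 9553 of tested genes). AAGATGGC was found in 12 (17.6%, against 2.9% and 4.8%) and GCATGCGC in 8 (11.8%, against 2.8% and 5.5%). CACGTG was found in 5 (7.4%, against 7.2% and 10.5%), so the E-box letters were about as frequent as in other promoters. Split by the fall at 24 h, CCGGAAG was in 12 of 39 that fell and 12 of the 29 others, AAGATGGC in 7 and 5, GCATGCGC in 4 and 4, CACGTG in 4 and 1, and any of them in 21 and 17. A match is a run of letters and not a measured binding site. Repeated elements were not set aside, so a match, that of CACGTG in Mrpl20 included, may lie in one. Of genes named above, Mrps25 and Mrpl24 held none of the 4 motifs in the 300-base window, and Mrpl18 held CCGGAAG there, outside the 150 bases before its start.

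Sorafenib at 24 h gave a second reference with the same time in its title. Of the 77 genes, 22 were lower in RMC-6272 24 h than in sorafenib 24 h and 0 higher, where 11.3% of all tested genes were lower and 7.47% higher (limma, adjusted p under 0.05). The median difference was -0.53, against -0.03 over all tested genes. The 2 groups did not overlap in 56 genes, which held for 61.7% of all tested genes, and 41 had an unadjusted p under 0.05, against 36% of all tested genes. This comparison shares its RMC-6272 libraries with the one against vehicle. It rests on 2 sorafenib libraries. The count was 0 without either of them, and so was the count over all tested genes. It was 5 without RMC-6272 replicate 1, where 5.8% of all tested genes were lower, and 12 without replicate 3, where 9.59% were. The median stayed between -0.62 and -0.47 in the fits without 1 library. With all 24 libraries the count was 3 (4.82% of all tested genes were lower), and without a filter on low values it was 11 (3.25%).

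Mrpl34 was again the gene with the largest difference, with 260 and 284 FPKM in sorafenib 24 h against 87.6, 123 and 102 FPKM (-1.39, adjusted p = 0.0182). Mrpl12, which forms the stalk that recruits translation factors, had 131 and 148 FPKM in sorafenib and 53.8, 89.0 and 48.9 FPKM in RMC-6272 (-1.16, adjusted p = 0.0109). In vehicle Mrpl12 had 92.7, 171 and 121 FPKM. Small subunit genes were Mrps26 (33 and 37.1 FPKM against 16.9, 15.4 and 14.7 FPKM; -1.11, adjusted p = 0.00967) and Mrps27, a protein with RNA-binding pentatricopeptide repeats (36.9 and 39.6 FPKM against 16.9, 21.1 and 21.1 FPKM; -0.93, adjusted p = 0.00927). Mrps25, Mrpl46, Mrpl49 and Mrpl18 also passed, with log2 differences of -1.06, -0.91, -0.90 and -0.96. No library of either group overlapped in these 8 genes. Adjusted p of Mrpl18 was 0.0492, and it was 0.0556 with a pseudocount of 5.

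No gene of the set passed the test between sorafenib and vehicle. At 4, 24 and 48 h 0 of 77 genes passed the test in limma, and 2, 2 and 1 had an unadjusted p under 0.05. Over all tested genes 0.00736%, 0% and 0% passed and 1.79%, 3.82% and 1.47% had an unadjusted p under 0.05. The medians of the set were 0.03, -0.09 and -0.15, and 4, 18 and 12 genes did not overlap between groups (8.74%, 30.5% and 18.5% of all tested genes). Mrps18b, a small subunit protein, had the smallest unadjusted p at 24 h, with 16.2 and 15.5 FPKM against 25.7, 20.6 and 22.9 FPKM in vehicle (-0.51, adjusted p = 1.00, 95% interval -0.84 to -0.18). A p that misses the threshold does not show that the levels were alike, and the interval of Mrps16, the largest positive difference at 24 h, was -0.17 to 0.91.

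**Figure D3:**
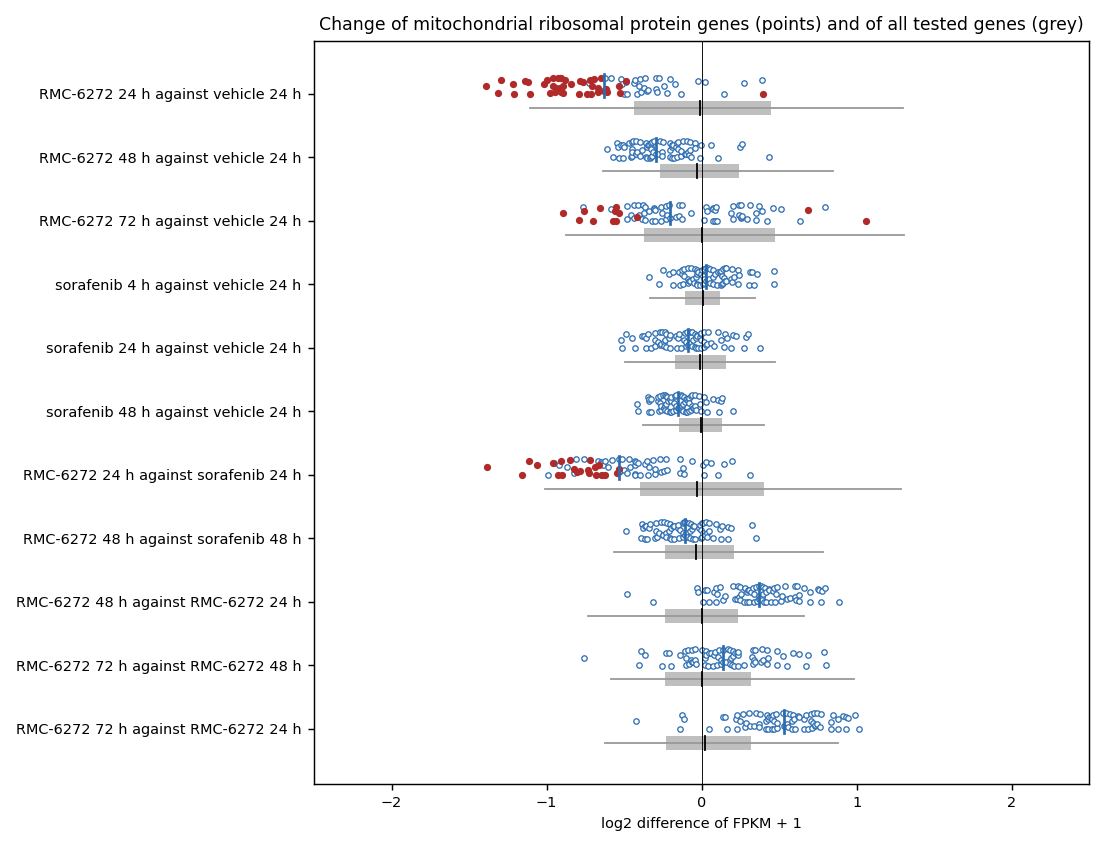
Points are the log2 differences of the 77 genes in each of 11 comparisons, filled red where limma's adjusted p was under 0.05 in either direction, and a blue bar marks their median. Grey boxes give the middle 50% of all 13594 tested genes and grey lines the middle 90%. The median of the set lies left of the grey box at 24 h of RMC-6272 (median -0.63 against -0.01) and around 0 with sorafenib at 4 h (median 0.03).

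RMC-6272 had only 1 library at 12 h, so no test was made there. Its median difference from the vehicle mean was -0.21. In this library 30 of 77 genes lay below all vehicle libraries and 5 above, against 37.2% and 36.1% of all tested genes, so the share below was near that of all genes. The library also stood apart from vehicle in markers of other cells, with summed levels of 71.6 FPKM for neutrophil markers (at most 3.20 FPKM in vehicle), 1970.0 FPKM for erythroid markers (at most 314.8) and 25430.0 FPKM for hepatocyte markers (at most 6581). Their part in these values was not tested. Mrpl34, for instance, had 249 FPKM at 12 h, within the range of vehicle, and Mrps22 had 8.83 FPKM, below all vehicle libraries (13.7 FPKM or more) and above all 24 h libraries (7.51 FPKM or less).

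At 48 h of RMC-6272 no gene of the set passed the test against vehicle. In limma 0 of 77 passed and 13 had an unadjusted p under 0.05, where 0.11% of all tested genes passed (0.0662% lower, 0.0441% higher) and 21.9% had such a p. The median was -0.29 (all tested genes -0.03), 72 genes had a negative value, and 16 did not overlap between groups, against 31.5% of all tested genes. In 69 of the 77 genes the mean at 48 h lay above that at 24 h and below that of vehicle, which held for 34.8% of all tested genes. Counted in either direction, the 48 h mean lay between the 24 h and vehicle means in 70 genes (90.9%), against 65.2% of all tested genes. Mrpl34 had 157, 212 and 212 FPKM at 48 h, Mrpl20 45.3, 70.8 and 55.3 FPKM, and Mrps22 8.30, 11.7 and 14.6 FPKM. The smallest p was that of Mrpl16, a large subunit protein, at 27.7, 36.7 and 43.2 FPKM against 55.4, 51.5 and 56.6 FPKM in vehicle (-0.61, adjusted p = 0.0947). Mrpl44, Mrpl9 and Mrps18b followed with -0.53, -0.51 and -0.40 (adjusted p = 0.123, 0.133 and 0.133).

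Against 24 h, 73 of the 77 genes were higher at 48 h, with a median of 0.37, but 0 passed the test and 29 had an unadjusted p under 0.05 (0.5% of all tested genes passed, 0.405% higher and 0.0956% lower, and 18.5% had such a p). Mrpl3, a core protein of the large subunit, had 7.82, 7.18 and 10.2 FPKM at 24 h and 12.0, 12.9 and 15.6 FPKM at 48 h (0.63, adjusted p = 0.0783). Hepatocyte markers went the other way: all 10 were lower at 48 h than at 24 h, with a median of -0.87 and 1 past the test, and their summed level went from 13520 to 31690 FPKM at 24 h to 7479 to 14620 FPKM at 48 h. Their part in the values of the set was not tested. Mrpl24 went against the set, from 38.2, 36.8 and 30.4 FPKM to 25.9, 24.5 and 24.0 FPKM (-0.48, adjusted p = 0.0903), back within its vehicle range or below it. Without RMC-6272 48 h replicate 1 the count of higher genes was 7 (3.86% of all tested genes), and without RMC-6272 24 h replicate 3 it was 1 (1.75% of all). RMC-6272 48 h against sorafenib 48 h had 0 of 77 genes past the test and 1 with an unadjusted p under 0.05 (0.00736% and 12.7% of all tested genes), with a median of -0.11.

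At 72 h of RMC-6272, 11 of the 77 genes fell and 2 rose against vehicle, where 15.8% of all tested genes were lower and 10.7% higher, so the share of 11 in 77 was near that of all genes. The median was -0.21, and 45 genes had a negative value. A gene did not overlap between groups in 17 cases (32.5% of all tested genes). The count of 13 depended on single libraries: it was 7 without vehicle replicate 1, 4 without vehicle replicate 3, 33 (31 lower, 2 higher) without RMC-6272 72 h replicate 2 and 6 without replicate 3. Over all genes tested in these 4 fits 13.3%, 13.7%, 38.7% and 17.6% were called. It was also 0 with only the 2 groups fitted, 2 with all 24 libraries, 6 without a filter on low values and 22 with quantile scaling. In these fits 0%, 11.6%, 7.09% and 28.1% of all tested genes were called. RMC-6272 72 h replicate 3 held the globin and neutrophil signal described above, and at 72 h 4 of 5 neutrophil markers, 1 of 5 erythroid markers and 6 of 10 hepatocyte markers rose. The count of neutrophil markers was 4 without replicate 3 as well, but 1, 2 and 0 without vehicle replicate 1, 2 and 3. In these 4 fits 7.06%, 4.38%, 7.02% and 4.4% of all tested genes were higher. The part of these cell markers in the result was not tested.

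Mrpl3 had the largest fall at 72 h, with 9.33, 5.89 and 7.68 FPKM against 16.8, 15.3 and 12.7 FPKM in vehicle (-0.89 ± 0.17, adjusted p = 0.00540). At 24 h it had 7.82, 7.18 and 10.2 FPKM, and the 72 h minus 24 h difference was -0.13 (adjusted p = 0.675). Mrps18b had 12.9, 11 and 15.1 FPKM against 25.7, 20.6 and 22.9 FPKM (-0.79, adjusted p = 0.00496), and Mrpl44, which carries a fold of RNase III enzymes, 22.7, 21.0 and 17.6 FPKM against 33.6, 35.5 and 36.3 FPKM (-0.76, adjusted p = 0.0108). In these 3 genes every library at 72 h lay below every vehicle library, and each fit that left out 1 library kept the call. Mrps2, Mrps22, Mrpl16, Mrpl37 and Mrpl19 fell by 0.70, 0.66, 0.57, 0.56 and 0.55 (adjusted p = 0.0244 to 0.0467), but each lost its call in 3 to 5 of the 6 fits without 1 library. The comparisons at 24 h and 72 h share the vehicle libraries.

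Both genes that rose at 72 h were ones that had not fallen at 24 h. Mrpl52, a mitochondrion-specific protein of the large subunit, had 143, 197 and 198 FPKM, above all vehicle libraries (51.2, 109 and 108 FPKM; 1.06 ± 0.26, adjusted p = 0.0125). It was past the threshold in each fit without 1 library. Mrps16, a small subunit protein with a bacterial homologue, had 19.1, 22.8 and 30.6 FPKM against 9.68, 19.9 and 15.2 FPKM (0.69, adjusted p = 0.0378), and the groups overlapped. Its adjusted p was 0.0723 to 0.159 when vehicle replicate 1 or 3 or RMC-6272 72 h replicate 3 was left out. Mrpl14 was higher in mean, at 89.1, 138 and 69.7 FPKM against 37.1, 73.1 and 59.6 FPKM (0.79, adjusted p = 0.0552). By subunit 6 large subunit genes fell and 1 rose, and 5 small subunit genes fell and 1 rose. Medians were -0.03 for genes with a bacterial homologue and -0.31 for mitochondrion-specific ones.

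The 72 h libraries differed among themselves. Medians of the set from the vehicle mean were -0.42 in replicate 1, 0.22 in replicate 2 and -0.35 in replicate 3. They were -0.31, 0.18 and 0.14 in vehicle and -0.77, -0.37 and -0.73 at 24 h. Mrpl34 shows it, with 155, 361 and 155 FPKM at 72 h. In a comparison added after the data were seen, 72 h against 24 h of RMC-6272, 73 of 77 genes were higher, with a median of 0.53 (all tested genes 0.02). Still 0 passed the test, and 52 had an unadjusted p under 0.05 (0% and 23.1% of all tested genes). Without RMC-6272 72 h replicate 1, 30 genes were called higher (11% of all genes tested in that fit), and without RMC-6272 24 h replicate 2, 16 were (2.72% of all). Mrpl33, a large subunit protein, had 2.88, 3.67 and 3.18 FPKM at 24 h and 4.39, 7.66 and 6.99 FPKM at 72 h (0.77, adjusted p = 0.0806). Mrps11 had 14.0, 18.7 and 13.4 FPKM and 21.9, 53.5 and 27.3 FPKM (1.02, adjusted p = 0.0877). Across the genes this difference had a Spearman's rho of -0.47 with exon length and 0.42 with mean level, as a description over 77 genes of the same libraries. From 48 to 72 h 0 genes passed and 13 had an unadjusted p under 0.05 (0% and 20.9% of all tested genes), with a median of 0.14. Mrpl3 had the smallest p in that interval, at 12.0, 12.9 and 15.6 FPKM and then 9.33, 5.89 and 7.68 FPKM (-0.76, adjusted p = 0.120).

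Other genes of mitochondrial translation were taken from lists of known members. Their counts at 24 h stand beside 20.3% of all tested genes that fell and 14.8% that rose. The 5 tested mitochondrial ribosomal proteins that go by other names all fell at 24 h of RMC-6272 (median -0.92): Ptcd3 from 22.8 ± 3.94 to 11.7 ± 3.11 FPKM (adjusted p = 0.00288), Gadd45gip1 by 1.10 on the log2 scale, Aurkaip1 by 1.07, Chchd1 by 0.73, and Dap3. Of 27 genes of mitoribosome assembly and RNA modification 9 fell and 0 rose (median -0.34), with Noa1, a GTPase of assembly, at -1.51 (32.7 ± 2.4 to 10.9 ± 1.60 FPKM, adjusted p = 0.00174) and the pseudouridine synthase gene Rpusd4 at -1.08 (adjusted p = 0.000941). Of 20 genes that charge mitochondrial tRNAs 7 fell and 0 rose (median -0.32), with Yars2, the tyrosyl enzyme, at -1.46 (35.2 ± 1.35 to 12.2 ± 1.70 FPKM, adjusted p = 0.000999). Of 13 translation factors 4 fell, among them the elongation factor gene Tufm (-0.86, adjusted p = 0.00250), and 1 rose, Metap1d, a methionine aminopeptidase (0.73, adjusted p = 0.00661). Their median was -0.10.

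At 24 h of RMC-6272, 16 of 29 genes of mitochondrial protein import fell and 0 rose (median -0.72), with Tomm5 of the outer membrane translocase at -1.74 (286 ± 64.1 to 84.2 ± 12.6 FPKM, adjusted p = 0.00183). In mitochondrial DNA maintenance and transcription 7 of 13 fell (median -0.57), with the RNA exonuclease gene Pnpt1 at -1.23 (adjusted p = 0.00196). The mRNAs that the mitochondrial ribosome translates held 1 of 13 past the test, mt-Nd2, which fell by 1.04 (adjusted p = 0.0298), and nuclear subunits of the respiratory chain 4 of 76 (median -0.20), with Cycs, the cytochrome c gene, at -1.16 (adjusted p = 0.00168). In the cytosol, ribosome biogenesis fell in 29 of 32 genes (median -0.98), while cytosolic ribosomal proteins fell in 4 of 84 with a median of 0.03. Mouse Myc, an entry that may also take reads of the human transgene, was higher at 24 h, at 6.32, 6.68 and 6.47 FPKM against 2.02, 1.73 and 1.14 FPKM (1.52, adjusted p = 0.00305). In the 6 fits that left out 1 library, the number that fell was 25 to 28 for cytosolic ribosome biogenesis, 10 to 18 for import, 5 to 10 for assembly, 5 to 8 for tRNA charging, 4 to 7 for DNA maintenance, 1 to 3 for translation factors, 1 to 5 for cytosolic ribosomal proteins and 0 to 2 for mitochondrial mRNAs. The lowest numbers for import, assembly, tRNA charging and DNA maintenance each came without vehicle replicate 2 or 3 or RMC-6272 replicate 1. For nuclear respiratory chain subunits it was 2 in 4 of these fits, but 17 without RMC-6272 replicate 2 and 15 without vehicle replicate 1. Over all tested genes 15.2 to 19% were lower in these fits. Differences between the lists were not tested.

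**Figure D4:**
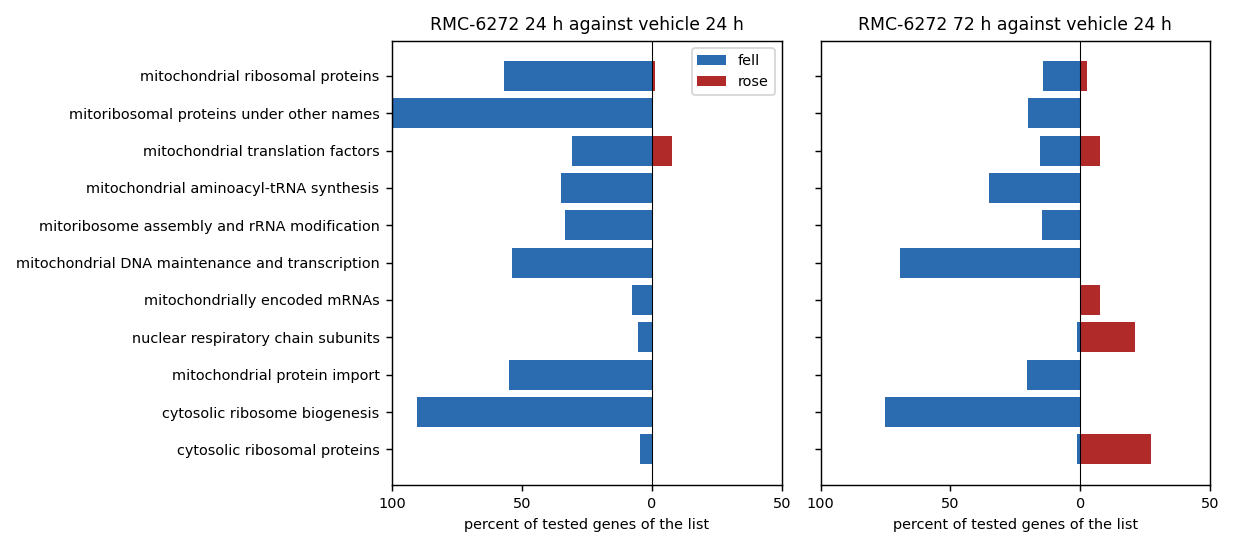
Bars give the percent of tested genes of each list that fell (blue, to the left) or rose (red, to the right) by limma's adjusted p, at 24 h (left panel) and 72 h (right panel) of RMC-6272 against vehicle. Mitochondrial ribosomal proteins fell in 44 of 77 genes at 24 h and 11 of 77 at 72 h, and cytosolic ribosomal proteins rose in 23 of 84 at 72 h.

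At 72 h, when 15.8% of all tested genes were lower and 10.7% higher, cytosolic ribosome biogenesis was lower in 24 of 32 genes, mitochondrial DNA maintenance and transcription in 9 of 13, tRNA charging in 7 of 20, import in 6 of 29 and assembly in 4 of 27, with 0 genes of these lists higher. The share of assembly genes was near that of all genes. Of the mitochondrial ribosomal proteins with other names 1 of 5 fell, Ptcd3 (-0.93, adjusted p = 0.00731). Of the translation factors 2 of 13 fell and 1 rose. Nuclear respiratory chain subunits rose in 16 of 76 and fell in 1 (median 0.44), and cytosolic ribosomal proteins rose in 23 of 84 and fell in 1 (median 0.57). Of the mitochondrial mRNAs mt-Co3 rose, and its SD was nearly as large as its mean (375 ± 350 FPKM against 42.3 ± 12.0 FPKM, adjusted p = 0.0138). With only the 2 groups fitted, 0 genes of any list and 0 of all tested genes were called at 72 h. Single libraries moved these counts as well, and those over all tested genes. Without vehicle replicate 1, 2 and 3, 4.38%, 7.02% and 4.4% of all tested genes were higher and 8.89%, 11.3% and 9.26% lower. Without RMC-6272 72 h replicate 1, 2 and 3, 10.4%, 17.1% and 7.06% were higher and 13.3%, 21.6% and 10.6% lower. Cytosolic ribosomal proteins that rose numbered 0 without vehicle replicate 1 or RMC-6272 replicate 3, 11 without vehicle replicate 3 and 60 without RMC-6272 replicate 1. Nuclear respiratory chain subunits that rose numbered 1 without vehicle replicate 1, 9 without vehicle replicate 3 and 8 without RMC-6272 replicate 2 or 3. Genes of DNA maintenance that fell numbered 0, 3 and 2 without vehicle replicate 1, 2 and 3, and 1 without RMC-6272 replicate 3. The fallen genes of ribosome biogenesis numbered 16 to 28 in the 6 fits, those of import 5 to 14, of assembly 3 to 11 and of tRNA charging 3 to 9, with the highest number of each without RMC-6272 replicate 2. Those of tRNA charging numbered 3 to 5 in the other 5 fits.

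The doxycycline and RMC-4627 libraries are given on their own, since their columns do not share the read steps or the order of levels of the other 20. Summed levels of the 77 genes were 2052 and 2137 FPKM with doxycycline and 1718 and 2773 FPKM with RMC-4627. The doxycycline libraries were like each other (Spearman's rho 0.97 over the 77 levels, 1 gene more than 2-fold apart). The RMC-4627 libraries were not (rho 0.20, 37 genes more than 2-fold apart), while within vehicle, RMC-6272 24 h and sorafenib 24 h the rho of 2 libraries was 0.95 to 1.00 and at most 8 genes were that far apart. Mrpl13, a large subunit protein, had 314 FPKM in RMC-4627 replicate 1 and 1.2 FPKM in replicate 2, and Mrpl27 had 169 and 0.913 FPKM. With doxycycline they had 55.3 and 74.8 FPKM, and 45.9 and 75.5 FPKM.

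In a limma fit of these 4 libraries alone 76 of the 77 genes were tested (Mrps5 did not meet the filter), 0 passed and 2 had an unadjusted p under 0.05, where 0% and 8.78% of 11058 tested genes did. The median of doxycycline minus RMC-4627 was -0.11, and single genes ranged from -1.54 to 2.81. Mrpl12 had the smallest p, at 80.2 and 72.2 FPKM with doxycycline against 4.54 and 20.9 FPKM with RMC-4627 (2.81, adjusted p = 0.559, 95% interval 0.65 to 4.97). Mrpl54, of the large subunit, had 96.6 and 84.1 FPKM against 36.6 and 23.0 FPKM (1.60, adjusted p = 0.559). Without RMC-4627 replicate 1 the count of called genes was 30 (15 higher, 15 lower), where 39.1% of all genes tested in that fit were called, and without replicate 2 it was 14 (6 higher, 8 lower), where 20.7% were. Both counts were near the share over all genes. Such fits leave a group of 1 that is assumed to vary like the other group. No level here was tested against vehicle, and only the order of levels, given above, was set beside it. RMC-4627 and RMC-6272 had the same dose and time, but were not compared because their columns differ as described.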

How the data were processed

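RNA of 24 tumour samples was sequenced after NEBNext Ultra library preparation, per the labels' protocols. The values used are the FPKM the authors deposited, 1 column per sample. Reads were aligned with STAR 2.5 to mouse build mm9 and counted with HTSeq 0.6.1, per the submitters' processing notes. The annotation, strand setting and filters are not given in the sources used here, so copies and overlapping genes could share reads. Of 54532 entries, 27 with a number in place of a name and 102 with a repeated symbol were left out, and 0 sample columns lacked a sample. No coordinates of the files' genes are given.

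From the deposited FPKM, log2(FPKM + 1) was tested with limma 3.58.1 (lmFit, eBayes with trend) in R 4.3.3, two-sided, with 1 mean per title group over the 20 vehicle, RMC-6272 and sorafenib libraries. Genes with an FPKM of 1 or more in at least 2 fitted libraries were tested, and Benjamini-Hochberg adjusted p under 0.05 over all of them was the threshold. A fold on this scale understates the change of low genes. The doxycycline and RMC-4627 libraries were fitted alone. Depth was read from single-read steps, with exon lengths by gene name, and covers counting error only.

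The members and gene lists were chosen with earlier results of these data known. Genes given with values are, in each comparison, up to 8 of the largest falls and rises past the threshold without overlap, otherwise the 4 with the smallest p, up to 3 against the median's sign, and up to 4 per list by p at 24 h. Levels that illustrate a time course or a spread (Mrpl34, Mrpl20, Mrps22, Mrpl13, Mrpl27 and others) were chosen after their values were seen. Alternatives were pseudocounts of 0.1 and 5, other filters, median-ratio and quantile scaling, all 24 libraries, only 2 groups, replicate or code blocks, and each library left out.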

Additional observations from a re-analysis of the deposited data

How the results depend on the processing

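Medians of the 77 genes moved by less than the larger replicate spread of the 2 groups under every alternative run. For fits without 1 library this was nearly bound to hold, so it is no sign of stability there. Leaving out 1 of 2 or 3 libraries moves a group's mean by less than that spread. None of the called results reversed. At 24 h of RMC-6272 against vehicle the median ranged from -0.78 to -0.50 and the count of called genes from 26 (all 24 libraries fitted) to 57 (45 in the main comparison). Over all tested genes 21.7%, 30.9% and 35.2% were called in these fits. With all 24 libraries the counts were also 2 at 72 h against vehicle, 3 against sorafenib 24 h and 10 for doxycycline against RMC-4627. Of all genes tested in that fit 11.6%, 8.54% and 11.7% were called. Without a filter on low values the counts were 6 at 72 h and 11 against sorafenib 24 h (7.09% and 5.27% of all tested genes). With quantile scaling they were 22 at 72 h and 1 for 48 h against 24 h of RMC-6272 (28.1% and 0.986%). The share of 22 in 77 was near that of all genes. With only the 2 groups fitted the count at 72 h was 0 (0% of all tested genes). The cause of these shifts was not tested.

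Leaving out 1 library gave 31 to 57 called genes at 24 h, where 24.5% and 30.9% of all tested genes were called. At 72 h it gave 4 to 33 (13.7% and 38.7%). Against sorafenib 24 h, leaving out an RMC-6272 library gave 5 to 24 (9.64% and 11.7%). The count was 0 to 7 for 48 h against 24 h of RMC-6272, with 5.36% of all tested genes called in the highest fit. It was 0 to 4 for 72 h against 48 h (11.2% in the highest fit) and 0 to 30 for 72 h against 24 h (19.3%). The 4 were below the share over all genes. At 48 h against vehicle, for sorafenib against vehicle and for RMC-6272 48 h against sorafenib 48 h the count stayed at 0. Of the medians, those of sorafenib 4 h against vehicle (-0.11 to 0.13) and of 72 h against 48 h (-0.09 to 0.29) changed sign between these fits, and the latter was -0.03 at its lowest under the other alternatives.

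Replicate numbers were shared between groups, and deviations of same-numbered libraries had a median correlation of 0.02 (-0.50 to 0.49), with 19 of 52 pairs over 0.1. With 2 or 3 libraries a group, these correlations cannot settle whether the samples were paired. With the replicate block the counts were 49 at 24 h, 14 at 72 h, 27 against sorafenib 24 h, 2 for 48 h against 24 h and 5 for 72 h against 24 h of RMC-6272, and 0 in the other comparisons. The share over all tested genes in these block fits is not given, so the counts are not read as particular to the set. Alternatives that left out no library of a comparison called 3120 to 4872 of all genes at 24 h and 0 to 3814 at 72 h. They called 1228 to 2974 against sorafenib 24 h, 0 to 199 for 48 h and 0 to 328 for 72 h against 24 h. The number of libraries, 2 or 3 a group, limits what a count of 0 can show.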
